A study of Mus musculus with 7 samples.

Results

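The genes described here control the formation of osteoclasts by bone-forming and stromal cells: Tnfsf11 (RANKL), Tnfrsf11b (osteoprotegerin, OPG), Tnfrsf11a (RANK) and Csf1 (M-CSF). They were found by their gene symbol in the platform annotation, which gave 10 probe sets of the 22626 that are not controls, and all 10 are shown. Tnfsf11, Tnfrsf11b and Tnfrsf11a had 2 probe sets each and Csf1 had 4. Signals were measured on 7 Affymetrix arrays of bone marrow stromal cells from double transgenic mice, OsxCre-mCherry;OcnCre-Topaz, aged 4 to 6 weeks and sorted by flow cytometry 6 days after tamoxifen. The 3 Ocn+ arrays hold green Topaz cells marked through the osteocalcin promoter, and the 4 Osx+ arrays hold red mCherry cells marked through the osterix promoter. All 7 samples share the transgenes and the tamoxifen, and double-coloured cells do not enter any comparison. A reporter switched on by Cre can mark the progeny of a cell as well as the cell itself, so the labels name a promoter and not a stage. Nothing in the labels says whether each array came from a separate mouse or pool. The p-values therefore measure the spread among these 7 samples alone, and that spread may be technical.

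RANKL is a ligand of the TNF family on stromal cells, osteoblasts and osteocytes. It binds the receptor RANK on osteoclast precursors of the monocyte lineage and drives them, through NF-kB, Fos and Nfatc1, to become bone-resorbing osteoclasts. OPG is a secreted decoy receptor that captures RANKL, so the balance of ligand and decoy sets how much RANKL reaches RANK. M-CSF, made by the same stromal cells, acts on the receptor Csf1r and keeps the precursors alive and dividing. The comparison asks whether osteocalcin-marked cells and osterix-marked cells differ in these signals.

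RefSeq promoter windows (build GRCm38.p6) were given for 3 of the 4 genes, each 300 bases long with 250 bases before the annotated start. Those of the ligand Tnfsf11 and the cytokine Csf1 are printed because their signals ran in opposite directions between the arrays, as given below. The Tnfsf11 window is chr14:78307994-78308293 and the Csf1 window chr3:107760420-107760719, both on the minus strand and written 5′ to 3′ along the gene. Capitals mark matches to the motifs searched on both strands.
Tnfsf11: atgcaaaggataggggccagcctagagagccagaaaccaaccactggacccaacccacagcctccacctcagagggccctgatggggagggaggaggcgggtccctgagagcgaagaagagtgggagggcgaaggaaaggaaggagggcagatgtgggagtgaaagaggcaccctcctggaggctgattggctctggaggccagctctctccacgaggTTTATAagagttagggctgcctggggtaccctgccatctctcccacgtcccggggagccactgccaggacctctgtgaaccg
Csf1: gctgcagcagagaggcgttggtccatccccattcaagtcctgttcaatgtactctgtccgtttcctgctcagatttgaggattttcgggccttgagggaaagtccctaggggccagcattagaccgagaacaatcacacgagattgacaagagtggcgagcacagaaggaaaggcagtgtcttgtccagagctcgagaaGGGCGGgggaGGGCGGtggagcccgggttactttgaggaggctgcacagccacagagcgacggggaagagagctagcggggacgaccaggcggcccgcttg
Of the 5 motifs searched, the RUNX core is TGTGGT and the AP-1 motif is TGANTCA. The CRE half-site is written TGACG and the TATA box TATAAA, while the GC box is GGGCGG. The Tnfsf11 window held 1 TATAAA match, on the opposite strand, from base -32 to -27 relative to the start, and none of the other 4 motifs. TATAAA occurred in 13.6% of the 32851 windows of this length in the RefSeq table. The Csf1 window held 2 GGGCGG matches, starting at bases -51 and -41, and none of the others. The Tnfrsf11a window, not printed, held 5 GGGCGG matches and 1 TGACG match. GGGCGG occurred in 35.7% of all windows and TGACG in 20.8%. TGTGGT and TGANTCA, found in 16.8% and 7.81% of all windows, did not occur in these 3 windows.

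Arrays of both groups stood apart in ways the labels do not name. Array medians lay within 8.25 to 8.35 on the log2 scale. The mean of the 3 probe sets of Xist, the RNA of the inactive X chromosome in female cells, was 9.92 to 11.08 in 4 arrays (Ocn+ replicates 2 and 3, Osx+ replicates 2 and 4) and 4.53 to 4.90 in the other 3 (Ocn+ replicate 1, Osx+ replicates 1 and 3). The Y-linked gene Eif2s3y was dim in Osx+ replicate 4 alone, at 4.03, and lay between 8.03 and 10.41 in the other 6 arrays, so 3 arrays were bright for both genes. Over the whole table the high-Xist and low-Xist arrays did not overlap for 7700 probe sets (34.0%), and by 1 probe set per gene for 34.3% of genes. A measure of RNA integrity moved with this split. The 3′ minus 5′ log2 signal of the Gapdh control was 0.59 to 0.64 in high-Xist and 0.89 to 1.26 in low-Xist arrays, and that of pyruvate carboxylase (Pcx) was 1.22 to 1.30 and 2.22 to 2.80. The same control measure overlapped between the classes for beta-actin (0.46 to 0.50 in high-Xist, 0.47 to 0.77 in low-Xist arrays) and for the transferrin receptor (3.26 to 4.03 and 3.70 to 5.33). Sp7, the osterix gene, was bright on every array, at 12.26 to 12.93 in Ocn+ and 12.15 to 12.83 in Osx+ cells, and the osteocalcin genes were not analysed here. It too was higher in high-Xist arrays (12.62 to 12.93) than in low-Xist arrays (12.15 to 12.28).

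The signals for RANKL, OPG, RANK and M-CSF did not separate Ocn+ from Osx+ cells. Every one of the 10 probe sets had a mean difference above 0 (0.07 to 0.60 log2 units, Ocn+ minus Osx+), and the groups overlapped in all 10. Of the 10, 0 were called by limma (adjusted p under 0.05) and 0 had an unadjusted p under 0.05. In the whole table limma likewise called 0 of 22626 probe sets (0%) and 1098 had an unadjusted p under 0.05 (4.85%). The groups did not overlap for 1482 probe sets (6.55%), with Ocn+ higher in 3.99% and lower in 2.56% of all. When each array was weighted by its spread around the group fit, limma called 68 probe sets (0.301%), none of them among the 10. The weights were 1.12 to 6.07 in high-Xist and 0.23 to 0.47 in low-Xist arrays, so this fit leans on the high-Xist arrays. Each limma 95% interval held 0, and the widest, for a Tnfrsf11a probe set, ran from -1.30 to 1.83, so changes of more than a doubling in either direction are not excluded for it. The same holds for Tnfrsf11b 1449033_at (-1.11 to 1.47). Every probe set of Tnfsf11, Tnfrsf11b and Csf1 had an interval that reached past a doubling in Ocn+ cells. Whether fewer cells of a type or less RNA per cell lies behind a lower signal cannot be told apart in these bulk samples.

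**Figure D1:**
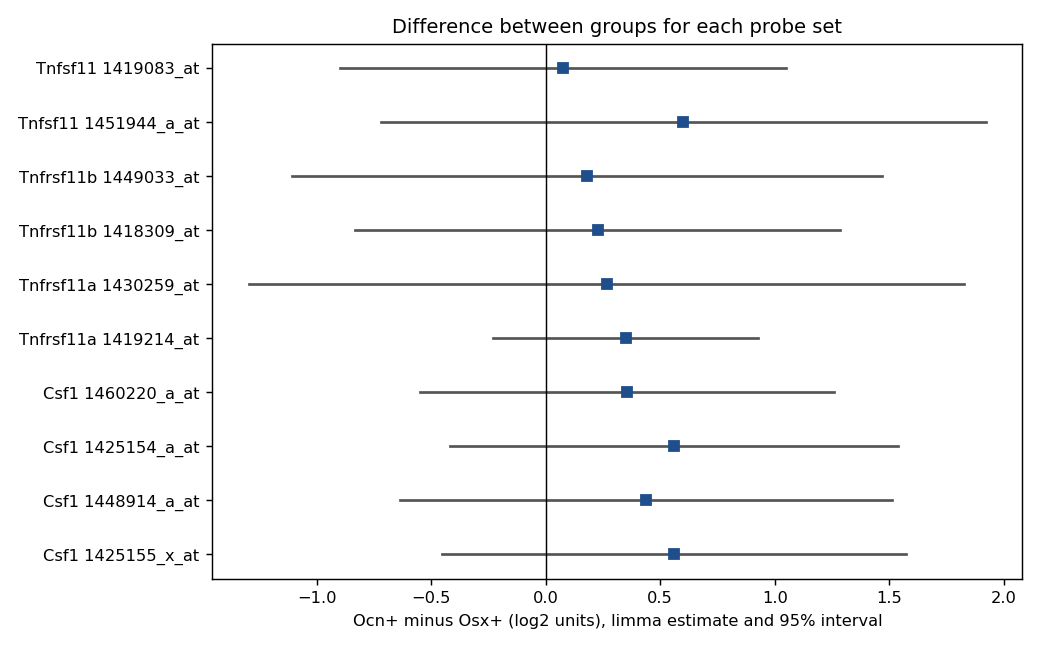
Difference in log2 signal, Ocn+ minus Osx+, for each of the 10 probe sets (squares, limma estimates from 3 Ocn+ and 4 Osx+ arrays) with its 95% interval (lines). All 10 estimates lie above 0, from 0.07 to 0.60, and all 10 intervals cross 0.

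Tnfsf11, the ligand, was bright by its first probe set, 1419083_at. Its log2 signal was 10.66, 11.80 and 11.64 in Ocn+ replicates 1 to 3, against 10.54, 11.96, 11.12 and 11.56 in Osx+ replicates 1 to 4. The highest array and the lowest array were both Osx+, and the Ocn+ values lay inside that range. Ocn+ arrays averaged 11.37 ± 0.62 (SD, n = 3) against 11.30 ± 0.61 for Osx+ arrays (n = 4), a limma difference of 0.07 (SE 0.41, adjusted p = 0.9999). Leaving out 1 array at a time moved that difference between -0.18, without Osx+ replicate 1, and 0.43, without Ocn+ replicate 1. It was -0.04 within the high-Xist arrays and -0.17 within the low-Xist arrays, where a single Ocn+ array stands against 2 Osx+ arrays.

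The second Tnfsf11 probe set, 1451944_a_at, gave 6.63, 7.47 and 7.99 in Ocn+ cells, against 5.73, 7.65, 6.20 and 7.47 in Osx+ cells. As for the first probe set, the 4 high-Xist arrays lay above the other 3, but the order of the arrays within each class differed. Ocn+ arrays averaged 7.36 ± 0.69 (SD, n = 3) against 6.76 ± 0.94 for Osx+ arrays (n = 4), and the limma difference was 0.60 (SE 0.56, adjusted p = 0.9999). This was the largest difference among the 10 probe sets, a ratio of 1.52 on the linear scale, with a 95% interval of -0.72 to 1.92. Within high-Xist arrays it was 0.17 and within low-Xist arrays 0.67. Signals of different probe sets are not on a common scale, so the gap in level between the Tnfsf11 probe sets is not a measure of transcript amount.

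Tnfrsf11b, the decoy receptor that opposes RANKL, had probe set 1449033_at at 7.55, 8.30 and 8.03 in Ocn+ cells, against 6.99, 8.84, 6.83 and 8.48 in Osx+ cells. The 3 Ocn+ arrays lay between the lower and the upper pair of Osx+ arrays. The Ocn+ mean was 7.96 ± 0.38 (SD, n = 3) against an Osx+ mean of 7.78 ± 1.02 (n = 4), with a limma difference of 0.18 (SE 0.55, adjusted p = 0.9999). Within the high-Xist arrays the difference was -0.49, with both Ocn+ arrays below both Osx+ arrays, and within the low-Xist arrays it was 0.65. Probe set 1418309_at gave 6.40, 6.79 and 7.26 in Ocn+ cells, against 5.98, 6.92, 5.91 and 7.56 in Osx+ cells, a limma difference of 0.23 (SE 0.45, adjusted p = 0.9999). Its differences within the high-Xist and low-Xist arrays were -0.21 and 0.45, so the pooled value joined opposite signs for either Tnfrsf11b probe set.

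The log2 difference of ligand minus decoy was taken within each array, from the brightest probe set of each gene (1419083_at minus 1449033_at). It was 3.11, 3.50 and 3.62 in Ocn+ replicates 1 to 3, against 3.55, 3.12, 4.29 and 3.08 in Osx+ replicates 1 to 4. Osx+ cells held the highest and the lowest value, and the Ocn+ values lay between them. Since the signals come from different probe sets, the sign and size of the level say nothing about which transcript was more abundant, and only its change between groups can be read. Ocn+ arrays averaged 3.41 ± 0.26 (SD, n = 3) against 3.51 ± 0.56 for Osx+ arrays (n = 4), a difference of -0.10 (SE 0.36) with a 2-sided exact permutation p of 0.857. The 2-sided p is the smaller tail doubled, and by that convention 3 against 4 arrays cannot give less than 0.0571, so the test as run cannot pass 0.05.

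The other 3 pairings of probe sets gave differences of -0.15, 0.42 and 0.37, with exact permutation p of 0.743, 0.229 and 0.400. The sign followed the Tnfsf11 probe set, being negative with 1419083_at and positive with 1451944_a_at. Within the high-Xist arrays the main difference was 0.45 and within the low-Xist arrays -0.81. Leaving out Ocn+ replicate 1 or Osx+ replicate 3 also turned the sign, to 0.04 and 0.16. The balance of RANKL and OPG signal was therefore not distinguishable between the groups with these arrays.

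**Figure D2:**
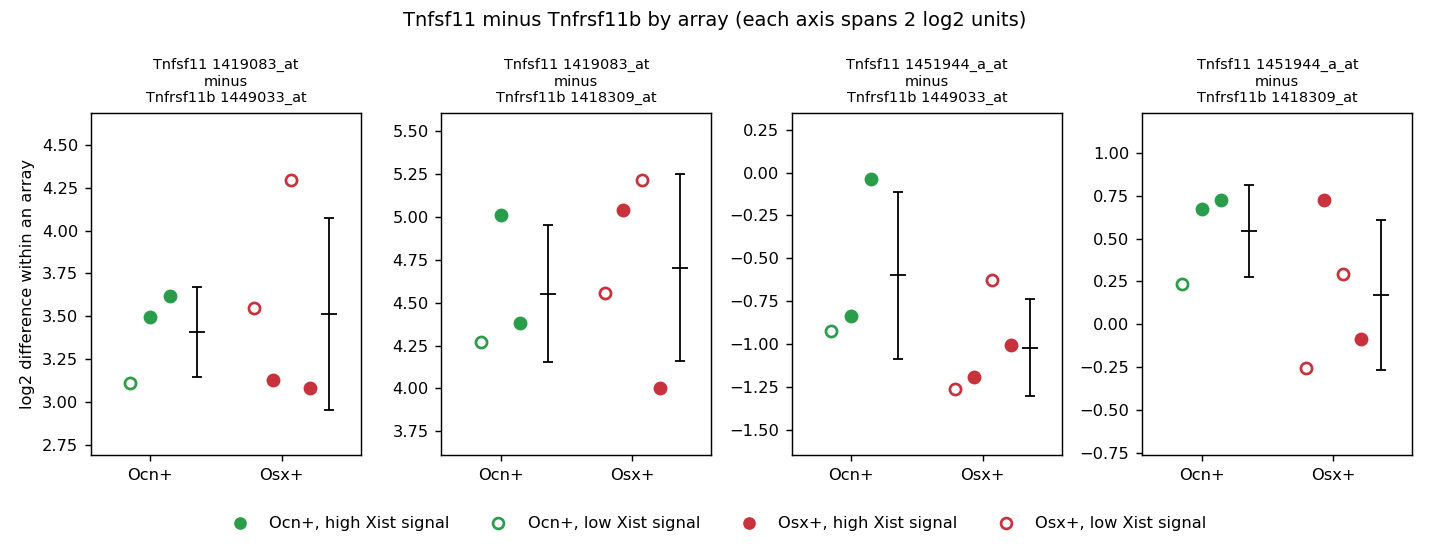
Tnfsf11 minus Tnfrsf11b log2 difference within each array for the 4 pairings of probe sets, Ocn+ at the left and Osx+ at the right of each panel, with points for arrays (filled for high, open for low Xist signal) and bars for the mean and SD. The groups overlap in every panel, and the mean is lower in Ocn+ cells in the first 2 panels and higher in the last 2.

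Tnfrsf11a, the receptor RANK, is a gene of the responding monocyte lineage more than of bone-forming cells. Probe set 1430259_at gave 8.60, 7.18 and 7.33 in Ocn+ cells, against 8.46, 7.32, 8.08 and 5.88 in Osx+ cells. The low-Xist arrays were the 3 highest here, the reverse of Tnfsf11, and Osx+ replicate 4 was the lowest by more than 1 log2 unit. The Ocn+ mean was 7.70 ± 0.78 (SD, n = 3) against an Osx+ mean of 7.44 ± 1.14 (n = 4), with a limma difference of 0.27 (SE 0.66, adjusted p = 0.9999). Without Osx+ replicate 4 the difference was -0.25. It was 0.66 within high-Xist and 0.32 within low-Xist arrays. Osx+ replicate 4 also had the lowest mean of the osteoclast markers (8.30) and of the neutrophil markers (7.38), and the lowest Csf1r signal (11.96). Its mean of the macrophage markers, which include Csf1r, was 9.83, the lowest among Osx+ arrays but above all Ocn+ arrays (8.50 to 9.70). The part of those cells in the Tnfrsf11a value was not tested.

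Probe set 1419214_at for Tnfrsf11a was dim, with its mean at the 20.8th percentile of all probe sets. It gave 5.53, 5.26 and 5.61 in Ocn+ cells, against 4.60, 5.54, 5.27 and 5.06 in Osx+ cells. Its order of arrays differed from that of 1430259_at, and no detection call was used, so whether it lies above background is not known. The limma difference was 0.35 (SE 0.25, adjusted p = 0.9999).

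Csf1, the M-CSF gene, had differences of 0.36 to 0.56 over its 4 probe sets. The brightest, 1460220_a_at, gave 11.49, 10.83 and 11.11 in Ocn+ cells, against 11.04, 10.07, 11.61 and 10.43 in Osx+ cells. Osx+ replicates 2 and 4 were the lowest arrays and Osx+ replicate 3 the highest. The Ocn+ mean was 11.14 ± 0.33 (SD, n = 3) against an Osx+ mean of 10.79 ± 0.68 (n = 4), with a limma difference of 0.36 (SE 0.38, adjusted p = 0.9999). The other 3 probe sets differed by 0.56 (1425154_a_at), 0.44 (1448914_a_at) and 0.56 (1425155_x_at), each with an adjusted p of 0.9999, and they share a gene, so they are not separate evidence.

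Osx+ replicate 2 was the lowest array in all 4 Csf1 probe sets, at 8.51 for 1425154_a_at, 8.62 for 1448914_a_at and 8.27 for 1425155_x_at. Without it the difference of 1460220_a_at was 0.12. Within the high-Xist arrays both Ocn+ values of 1460220_a_at exceeded both Osx+ values, a difference of 0.72 (limma SE 0.20, adjusted p = 0.177). Within the low-Xist arrays the difference was 0.17. With the Xist class as a term in the limma model the 4 probe sets differed by 0.50 to 0.68, and the smallest adjusted p was 0.269, so Csf1 did not pass there either.

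**Figure D3:**
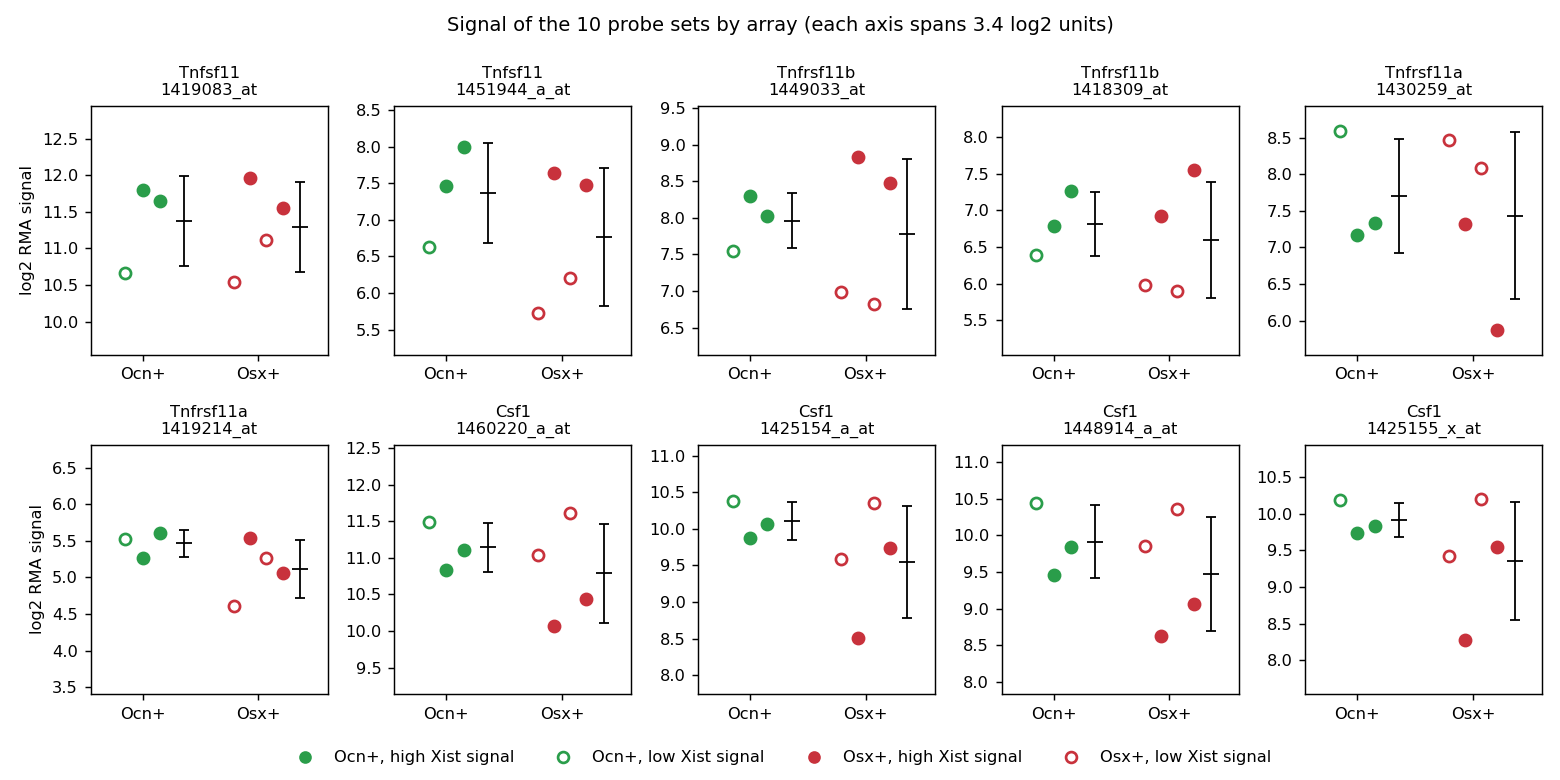
Log2 signal of the 10 probe sets in each array, Ocn+ at the left and Osx+ at the right, filled points for high and open points for low Xist signal, with the mean and SD beside each group. Filled points lie above open points for Tnfsf11 and Tnfrsf11b and below them for Tnfrsf11a 1430259_at, while the groups overlap in every panel.

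Most of the 10 probe sets lined up by Xist class and not by reporter. High-Xist arrays did not overlap with low-Xist arrays in 6 of them, against 34.0% of all probe sets. Both probe sets of Tnfsf11 and both of Tnfrsf11b are among the 6, so these are not 6 separate cases. In 4 the high-Xist arrays were higher, as in 15.6% of all, and in 2 lower, as in 18.4% of all. Tnfsf11 1419083_at was 11.56 to 11.96 in high-Xist and 10.54 to 11.12 in low-Xist arrays, and 1451944_a_at was 7.47 to 7.99 and 5.73 to 6.63. Tnfrsf11b 1449033_at was 8.03 to 8.84 in high-Xist and 6.83 to 7.55 in low-Xist arrays. The ligand and its decoy therefore stood high in the same 4 arrays, which hold both reporters.

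RANK by its brightest probe set, and M-CSF, ran the other way. The other Tnfrsf11a probe set, 1419214_at, overlapped between the classes and was higher on average in high-Xist arrays, by 0.23 log2 units. Tnfrsf11a 1430259_at was 5.88 to 7.33 in high-Xist and 8.08 to 8.60 in low-Xist arrays, and Csf1 1448914_a_at was 8.62 to 9.84 and 9.86 to 10.45, a gap of very small size. The other 3 Csf1 probe sets were lower on average in high-Xist arrays, by -0.56 to -0.77 log2 units, and overlapped. These classes were defined from the arrays and are not groups of the study, so no test was made, and sex, RNA integrity and any other feature that runs with the split cannot be told apart. Markers of the fat-forming stroma (9 of 9 measured), a marrow cell type known for RANKL, averaged 8.88 to 9.40 in high-Xist and 8.20 to 8.71 in low-Xist arrays. Of the 9, 6 had a higher mean in high-Xist arrays, among them Lepr (1.97) and Kitl (1.17), while Cebpa (-0.34), Cxcl12 (-0.38) and Pparg (-0.56) had a lower one. The part of these cells in the Tnfsf11 values was not tested.

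**Figure D4:**
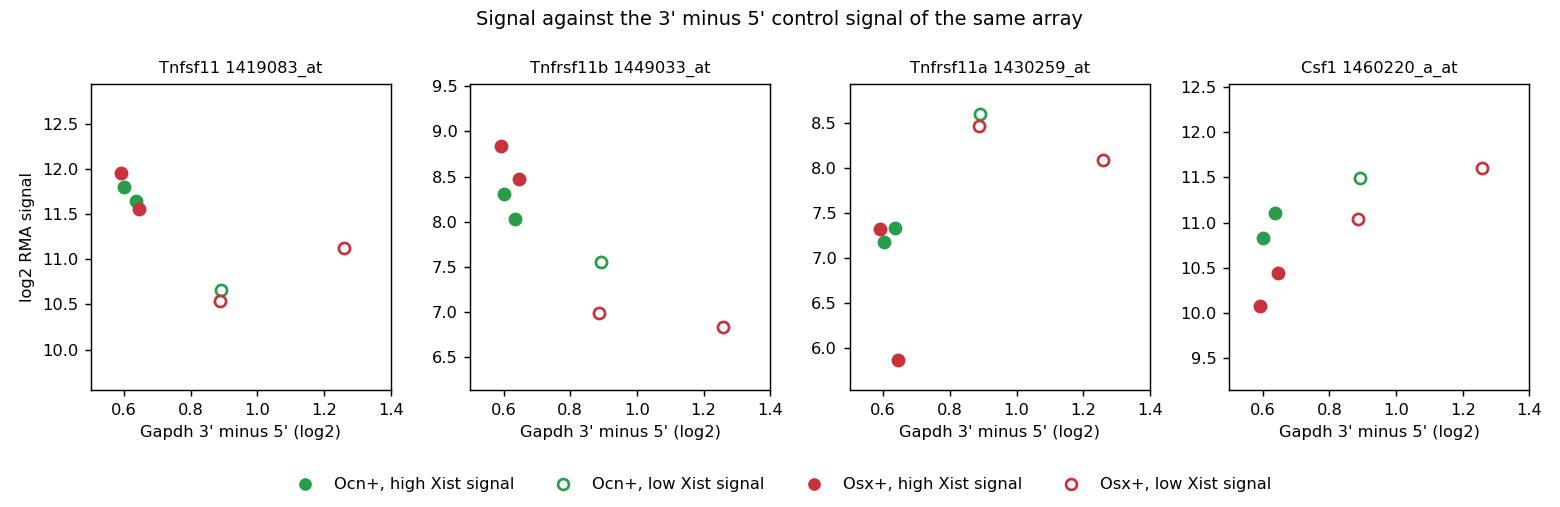
Log2 signal of the brightest probe set of each gene (vertical axis) against the 3′ minus 5′ log2 signal of the Gapdh control of the same array (horizontal axis), for 3 Ocn+ and 4 Osx+ arrays, filled for high and open for low Xist signal. The 4 high-Xist arrays lie at 0.59 to 0.64 and the low-Xist arrays at 0.89 to 1.26, with Tnfsf11 and Tnfrsf11b higher and Tnfrsf11a lower in the first.

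Genes of the wider pathway were read from 3 lists, each gene by its brightest probe set. Of 29 measured genes of RANK signalling, 0 rose and 0 fell (limma adjusted p under 0.05), 15 had a difference above 0 and 14 below, and the median was 0.00 against 0.02 over all 12393 genes. An unadjusted p under 0.05 was found for 2 higher and 1 lower genes, where 3.49% of all genes were higher and 1.86% lower at that limit. Gab2, an adaptor bound to RANK, differed by 0.53 (SE 0.15, limma adjusted p = 0.848), with 6.10, 6.11 and 6.37 in Ocn+ cells and 5.57 to 5.73 in Osx+ cells. These values lay under the array medians (8.25 to 8.35), and without a detection call it is not known whether they exceed background. Src, a kinase that osteoclasts need for resorption, differed by 0.95 (SE 0.35), and Bcl6, a repressor of osteoclast genes, by -0.41 (SE 0.17). Gab2 and Bcl6 were the 2 genes of this list whose groups did not overlap, where 4.37% of all genes were higher without overlap and 2.53% lower. Traf6, the adaptor that carries the RANK signal, differed by 0.04 (SE 0.24), and Nfatc1, the master transcription factor of osteoclasts, by 0.16 (SE 0.23), both picked with their values in view.

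Among 18 measured genes of the M-CSF receptor and the co-receptors of osteoclast precursors, 0 rose and 0 fell, with a median difference of 0.14 and 12 of 18 above 0. Oscar, an activating co-receptor of osteoclasts, stood furthest apart. It was at 9.87, 9.81 and 10.26 in Ocn+ cells, against 5.64, 5.84, 8.04 and 5.14 in Osx+ cells. Oscar was the only gene of this list whose groups did not overlap, where 4.37% of all genes were higher without overlap and 2.53% lower. The difference of 3.82 (SE 0.66) had a limma adjusted p of 0.676. In the limma model with array weights, which leans on the high-Xist arrays, Oscar was called, at 4.26 (adjusted p = 0.0346). It was the only call in the 3 lists and 1 of 44 among all genes (0.355%). Pik3cg, a lipid kinase of white blood cells, differed by -0.86 (SE 0.46) and the integrin Itgb3 by 0.40 (SE 0.23). Csf1r, the receptor for M-CSF, was bright in both groups, averaging 13.21 ± 0.34 over Ocn+ arrays (SD, n = 3) against 12.93 ± 0.68 over Osx+ arrays (n = 4). Its difference was 0.28 (SE 0.39), and Il34, the other ligand of Csf1r, picked with its value in view, differed by 0.33 (SE 0.26).

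The third list held hormones, cytokines and other regulators of RANKL and OPG, and 41 of its 46 genes were measured. By limma 0 rose and 0 fell, 21 lay above 0 and 20 below, and the median difference was 0.01. Il1a, the inflammatory cytokine interleukin-1 alpha, was at 5.64, 4.97 and 5.26 in Ocn+ cells, against 6.91, 6.99, 7.50 and 5.99 in Osx+ cells. All Ocn+ arrays were below all Osx+ arrays, with a difference of -1.56 (SE 0.36, limma adjusted p = 0.791). Wnt16, a Wnt ligand known to restrain osteoclasts in mouse cortical bone, was at 7.51, 7.92 and 6.89 in Ocn+ cells, against 6.33, 6.34, 5.63 and 6.64 in Osx+ cells. It lay above all Osx+ arrays, with a difference of 1.21 (SE 0.33, limma adjusted p = 0.848). Both Il1a and Wnt16 were under the median of every array (8.25 to 8.35), and no detection call was used. Creb1, a transcription factor of the parathyroid hormone response, differed by -0.46 (SE 0.18) without overlap. In this list 1 gene was higher and 2 were lower without overlap, of 41 measured, where 4.37% of all genes were higher and 2.53% lower. The hormone receptors that raise RANKL in these cells, also picked with their values in view, differed by 0.67 (SE 0.44) for Vdr and by -0.01 (SE 0.13) for Pth1r.

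**Figure D5:**
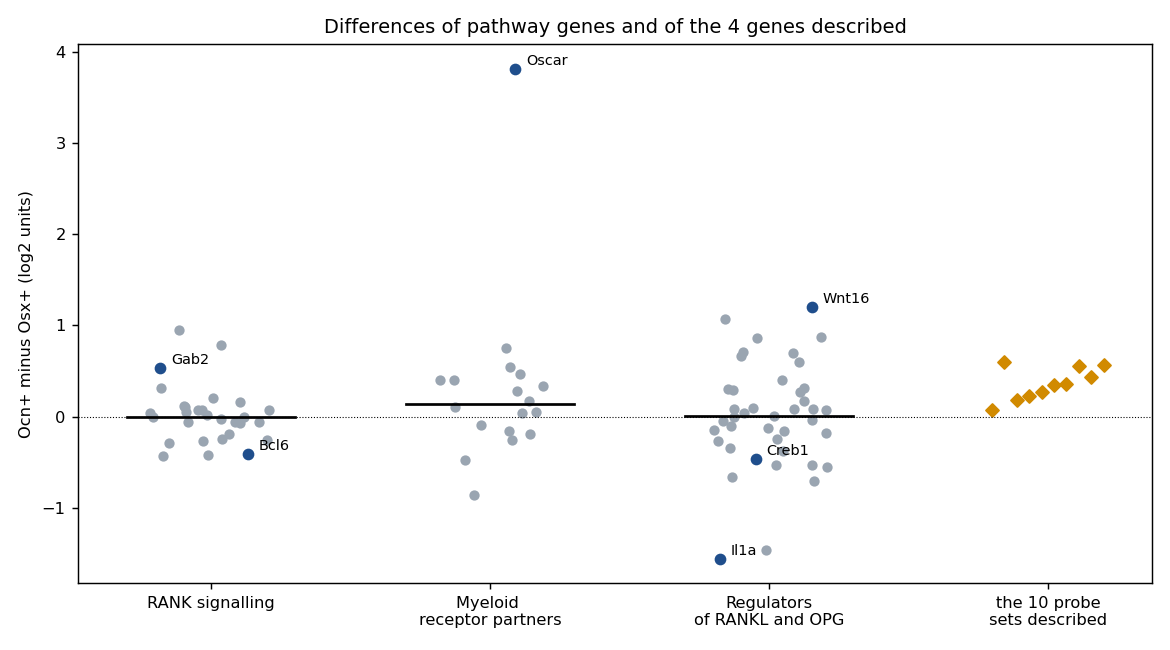
Ocn+ minus Osx+ log2 difference of each measured gene (points) of the 3 pathway lists, with the list median (line), and of the 10 probe sets of Tnfsf11, Tnfrsf11b, Tnfrsf11a and Csf1 (diamonds). Named blue points are genes whose groups do not overlap, among them Oscar at 3.82 and Il1a at -1.56, and the list medians lie between 0.00 and 0.14.

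Markers of cells that answer RANKL and M-CSF were read in both sorts, but without a detection call, so the presence of the cells is not shown. The osteoclast list held dim and bright genes in Osx+ arrays, such as Calcr (4.04 to 7.40) and Acp5 (10.92 to 13.78). Markers of osteoclasts (8 of 12 measured, all 8 with a higher mean in Ocn+ arrays) averaged 10.65 to 11.04 in Ocn+ and 8.30 to 10.30 in Osx+ arrays, and Ctsk and Acp5, an osteoclast protease and phosphatase, differed by 0.86 (SE 0.23) and 1.51 (SE 0.63). Markers of macrophages (13 of 13, with 2 higher in Ocn+ arrays) averaged 8.50 to 9.70 in Ocn+ and 9.83 to 10.87 in Osx+ arrays, and Adgre1 differed by -1.63 (SE 0.59). None of these genes passed in limma over the whole table, and the smallest adjusted p among Ctsk, Acp5 and Adgre1 was 0.848. Endothelial markers (14 of 14, all higher in Ocn+ arrays) averaged 9.51 to 10.02 in Ocn+ and 6.12 to 9.06 in Osx+ arrays, and neutrophil markers (11 of 11, all higher) 10.93 to 11.15 and 7.38 to 10.59. Markers of T and B lymphocytes (9 of 11, with 5 higher), which can also make RANKL, averaged 5.83 to 6.27 in Ocn+ and 5.84 to 6.63 in Osx+ arrays. Within that list Cd79b (10.30), Cd4 (9.97) and Cd79a (8.81) were brighter than the array median in Osx+ replicate 1. All other measured genes of the list were below it there, from Cd3g (4.16) to Cd8a (6.84). Cd4 also exceeded the array median in Osx+ replicates 2 (9.24) and 4 (8.44), and Cd79b in Ocn+ replicate 1 (8.45). Bone lineage markers (9 of 14, with 7 higher) averaged 12.32 to 12.74 in Ocn+ and 11.16 to 12.56 in Osx+ arrays, and cartilage markers (9 of 9, with 1 higher) 9.33 to 10.63 and 9.96 to 12.19. The part of these cells in the values of the 4 genes was not tested.

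The genes whose pattern over the 7 arrays was most like each of the 4 were found by Pearson r among the 6098 or 6099 genes searched, those brighter than the median gene. For Tnfsf11 they were Acp1 (0.990), Impa1 (0.986), Ammecr1l (0.984) and Chfr (0.981). For Tnfrsf11b they were Msi2 (0.990), Memo1 (0.984), Gnb1 (0.983) and G3bp1 (0.981). For Tnfrsf11a they were H2-Ab1 (0.989), a chain of MHC class II, Csf2ra (0.984), a receptor chain for GM-CSF, Asl (0.977) and Gpx1 (0.975). For Csf1 they were Abhd4 (0.996), Tmx2 (0.994), Wrnip1 (0.994) and Nr4a1 (0.993), the last an immediate early transcription factor. All 16 differed in mean between high-Xist and low-Xist arrays in the same direction as the gene they resemble. That follows from their choice by r with probe sets that differ in mean between the classes. For Tnfrsf11a the choice rests on 1430259_at, whose r with 1419214_at was -0.06. With 7 arrays in 2 classes such values describe shared array structure as much as likeness, and no test was made.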

How the data were processed

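Log2 expression values for 22690 probe sets were deposited by the authors, made with RMA (background correction, quantile normalization and summary per probe set) per the submitters' processing notes, and the software version is not given in the sources used here. Trizol-extracted RNA had been amplified with NuGEN Ovation V2, which favours the 3′ end, per the labels' protocols. The values ran from 3.00 to 15.28. From these, 64 control probe sets were set aside and 22626 were tested. Symbols came from the platform annotation, where 20380 probe sets had 1 symbol, 691 several and 1555 none, and 20351 symbols were matched through Entrez identifiers. Probe sets with 1 symbol gave 12393 genes, each read by its brightest probe set for lists.

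Groups came from the sample titles. Ocn+ minus Osx+ was fitted with limma 3.58.1 in R 4.3.3 (lmFit and eBayes without a block). Tests were 2-sided, and p-values were adjusted by Benjamini-Hochberg over all probe sets with a threshold of 0.05. The code was tested on simulated data with independent noise, where changes were planted in 200 probe sets. Planted changes of 1, 2 and 4 log2 units were called in 11.9%, 71.1% and 95.6% of cases, with 6.95 false calls per run. Most changes of 1 log2 unit were therefore missed there. The RANKL minus OPG difference was compared by an exact permutation test over 35 splits. Arrays with a mean Xist signal over 8 were called high-Xist. The number of arrays limits the precision. The members, lists, marker sets and the Xist class were chosen with earlier results of these data known. Named genes were all members, per list the 3 of smallest p or any called, Sp7, 4 osteoclast and macrophage genes (Ctsk, Acp5, Csf1r, Adgre1), and per member the 4 most alike genes without predicted genes or clones. Alternatives were leaving out each array, the replicate number as a block, the prior, array weights, renormalization, filters on dim probe sets, other probe set summaries, and the Xist class.

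The replicate numbers shared by the groups were checked as a pairing: deviations from the group means correlated at 0.66, 0.48 and -0.36 for numbers 1 to 3, so they were not taken to pair the samples.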

Additional observations from a re-analysis of the deposited data

Results flagged for a closer look

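The difference of the Tnfrsf11b probe set 1449033_at ran in opposite directions in the 2 Xist classes without overlap. The share of all probe sets with such a pattern is not given here, so the pattern is not shown to be unusual. By 1449033_at both high-Xist Ocn+ arrays (8.30 and 8.03) lay below both high-Xist Osx+ arrays (8.84 and 8.48), and the low-Xist Ocn+ array (7.55) lay above both low-Xist Osx+ arrays (6.99 and 6.83). The effect within high-Xist arrays minus that within low-Xist arrays was -1.14 log2 units. By 1418309_at the signs were also opposite, but high-Xist Ocn+ arrays (6.79 and 7.26) overlapped high-Xist Osx+ arrays (6.92 and 7.56).

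The main ligand minus decoy difference (1419083_at minus 1449033_at) did the same in the other direction. High-Xist Ocn+ arrays (3.50 and 3.62) lay above high-Xist Osx+ arrays (3.12 and 3.08), and the low-Xist Ocn+ array (3.11) lay below the low-Xist Osx+ arrays (3.55 and 4.29). The effects differed by 1.27 log2 units. The value uses the same Tnfrsf11b probe set and is no separate finding. The other pairings did not show it. By 1419083_at minus 1418309_at, high-Xist Ocn+ arrays (5.01 and 4.38) overlapped high-Xist Osx+ arrays (5.04 and 4.00). By 1451944_a_at minus 1449033_at, the low-Xist Ocn+ array (-0.92) lay between the low-Xist Osx+ arrays (-1.26 and -0.63). Neither difference between the classes was tested, the low class holds a single Ocn+ array, and the classes were defined from the arrays.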

How the results depend on the processing

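With 3 against 4 arrays the signs of these small differences were not stable, and the brightest probe set of each of the 4 genes passed in none of the alternatives run. Csf1 stayed above 0 in all 20 alternatives (0.12 to 0.72, smallest limma adjusted p 0.177), but these are not 20 separate checks. Settings that changed only the prior or which other probe sets were kept returned its main value of 0.36 by construction. The replicate block gave 0.24, the same value as without Osx+ replicate 4, the only array of that number. Tnfsf11 turned below 0 within high-Xist arrays (-0.0383), within low-Xist arrays (-0.17) and with Xist class as a model term (-0.0890), and 1 array left out gave -0.18 (without Osx+ replicate 1) to 0.43, also below 0 without Ocn+ replicate 2 (-0.14) or 3 (-0.06). Tnfrsf11b turned with array weights (-0.14), within high-Xist arrays (-0.49) and with Xist class as a model term (-0.0366), and 1 array left out gave -0.14 (without Osx+ replicate 3) to 0.53, with -0.09 without Osx+ replicate 1. Tnfrsf11a ran from -0.25 (without Osx+ replicate 4) to 0.61 with 1 array left out, and was -0.18 without Ocn+ replicate 1. The ligand minus decoy difference turned with the mean of all probe sets (0.13), the pairings that use 1451944_a_at (0.42 and 0.37) and within high-Xist arrays (0.45), and ran from -0.25 to 0.16 with 1 array left out. With the replicate number as a block Tnfrsf11a was -0.25, and no call of a gene described here changed. Tnfrsf11a and Tnfrsf11b have no value with probe sets under the median signal left out, since theirs were removed.

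The count of called probe sets, 0 in the main fit (1098 at an unadjusted p under 0.05), was 68 with array weights, 6 within high-Xist arrays and 1 with Xist class as a model term. With 1 array left out it ran from 0 to 5, with 2 without Osx+ replicate 2 and 5 without Osx+ replicate 3. The brightest probe set of each of the 4 genes was not among them. Array weights called 1 gene of the co-receptor list, Oscar. The cause of these changes was not tested.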

Other observations

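Relb, Map3k14 and Traf2, genes of the NF-kB branch downstream of RANK chosen after their values were seen, overlapped between the reporters and not between the Xist classes. Relb, a subunit of the non-canonical pathway, was at 11.63, 10.18 and 9.67 in Ocn+ replicates 1 to 3, against 11.43, 9.80, 11.74 and 9.78 in Osx+ replicates 1 to 4. Map3k14, the kinase that starts that pathway, was at 10.34, 8.95 and 8.87 in Ocn+ cells, against 10.15, 8.38, 10.34 and 8.94 in Osx+ cells. Traf2, an adaptor of TNF receptors, was at 9.45, 8.64 and 8.04 in Ocn+ cells, against 9.73, 7.98, 9.31 and 7.91 in Osx+ cells. High-Xist arrays were lower than low-Xist arrays without overlap in all 3 genes, and higher without overlap in Traf6, by 0.40 log2 units. Of the 29 measured RANK signalling genes, 18 did not overlap between the classes (7 higher and 11 lower in high-Xist arrays), against 34.3% of all genes as given above, and no test was made.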
